A study of Mus musculus with 2 samples.

Results

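Mir23a, Mir27a and Mir24-2 lie together on mouse chromosome 8, and their paralogs Mir23b, Mir27b and Mir24-1 lie in the same order on chromosome 13. These 6 microRNA (miRNA) genes were chosen by their GENCODE M21 names, and all 6 were found among the 2202 miRNA genes counted. The 3 genes on chromosome 8 are called the Mir23a cluster and the 3 on chromosome 13 the Mir23b cluster. Small RNA libraries were sequenced from the cerebral cortex of untreated wild-type mice of strain B6NCrl, described as female controls, with sex and age fields that read as not collected. The series has 1 group of 2 libraries, numbered as biological replicates 1 and 2. Both cite the same donor record, and nothing says that they came from separate animals, so the spread between them may be technical. There is no treatment, genotype or second tissue, and the comparisons below are between the clusters, between the genes of each cluster and between the libraries.

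miRNAs are cut from hairpins in longer transcripts. The enzyme Drosha frees each hairpin, Dicer cuts it to a short duplex, and 1 arm is usually kept by an Argonaute protein, where its seed (bases 2 to 8) pairs with target messenger RNAs. Genes of a cluster can share 1 primary transcript, but each hairpin is processed separately. The miR-23, miR-27 and miR-24 clusters are best known from blood vessels, where they act in endothelial growth, and miR-23 and miR-27 are also found in astrocytes. miR-23a represses lamin B1 during oligodendrocyte maturation, miR-27 represses Pparg in fat cell formation, and miR-24 represses cell cycle genes.

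The mature sequences were read from a RefSeq table (GRCm38.p6, coordinates as in mm10), which held a hairpin for 6 of the 6 genes, each at the GENCODE position. They are shown because what the arms of paralogs share decides which reads can be assigned to 1 gene. miR-23b-3p is named only, because the RefSeq table held no mature sequence for it. The 3p arms of the Mir23 pair were therefore not compared. Sequences run 5′ to 3′ with the seed in capitals.
miR-23a-3p: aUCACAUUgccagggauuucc
miR-27a-3p: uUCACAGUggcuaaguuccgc
miR-27b-3p: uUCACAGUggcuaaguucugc
miR-24-3p: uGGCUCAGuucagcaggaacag
miR-24-2-5p: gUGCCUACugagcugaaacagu
miR-24-1-5p: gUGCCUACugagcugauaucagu
miR-23a-5p: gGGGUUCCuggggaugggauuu
miR-23b-5p: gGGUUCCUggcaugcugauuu
miR-27a-5p: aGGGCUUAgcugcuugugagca
miR-27b-5p: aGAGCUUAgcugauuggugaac

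miR-27a-3p and miR-27b-3p share the seed UCACAGU and their first 18 bases, and differ over 21 bases by 1 substitution, C19U, counted from the 5′ end of miR-27a-3p. The seed of miR-23a-3p, UCACAUU, lies inside the longest run that the Mir23a and Mir23b hairpins share. Among the mature sequences of the table, UCACAGU was in no gene but Mir27a and Mir27b. miR-24-3p is the same sequence from both loci. Its seed GGCUCAG also occurred in Mir5124b, Mir6369, Mir6410 and Mir6413, which had 0 sense counts in both libraries. The 5p arms, usually the minor ones of these hairpins, differ more. miR-27a-5p and miR-27b-5p differ at 8 of 22 positions compared without gaps, and miR-23a-5p and miR-23b-5p at 12 of 21. miR-24-2-5p and miR-24-1-5p share their first 16 bases, seed UGCCUAC included.

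The hairpins of the Mir23 and Mir24 pairs are printed with their longest shared run in capitals, because these runs are the parts that a short read could match at either locus.
Mir23a hairpin: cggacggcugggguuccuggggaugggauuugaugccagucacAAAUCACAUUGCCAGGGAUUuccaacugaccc
Mir23b hairpin: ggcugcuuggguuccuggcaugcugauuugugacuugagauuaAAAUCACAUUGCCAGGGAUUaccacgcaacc
Mir24-2 hairpin: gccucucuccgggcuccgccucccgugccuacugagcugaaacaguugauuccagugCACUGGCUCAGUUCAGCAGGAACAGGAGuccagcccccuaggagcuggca
Mir24-1 hairpin: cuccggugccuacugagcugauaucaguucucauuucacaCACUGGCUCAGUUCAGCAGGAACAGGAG

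The longest shared run was 20 bases in the Mir23 pair, 20 bases in the Mir27 pair and 28 bases in the Mir24 pair. Read in windows of 22 bases, none of the 54 windows of Mir23a, 53 of Mir23b, 66 of Mir27a or 52 of Mir27b occurred in another hairpin of the table. In Mir24-2, 7 of 86 windows did, and in Mir24-1, 7 of 47. The whole of miR-24-3p lies inside the shared run of 28 bases. For the Mir23 and Mir27 pairs a window of 22 bases could not match the paralog exactly, because their shared run is 20 bases. The aligner is not given, so whether reads were placed at the paralog with a mismatch was not tested. A read of 20 bases or fewer inside that run can match both copies. How many such reads there were was not tested. Reads placed at several loci, 5486117 in replicate 1 and 8750989 in replicate 2, enter no gene's count. A full-length miR-24-3p read matches both Mir24 hairpins, so the Mir24 counts below are not levels of miR-24-3p. How many of the reads placed at several loci were miR-24-3p was not tested. The tables also do not separate the arms of a hairpin.

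On mm10, Mir23a lies at chr8:84208518-84208592, Mir27a at chr8:84208672-84208758 and Mir24-2 at chr8:84208815-84208921, all on the plus strand within 404 nt. Mir24-2 overlaps an exon of the long noncoding RNA Gm26532 on its own strand, and no annotated host overlaps Mir23a or Mir27a. Mir23b lies at chr13:63300484-63300557, Mir27b at chr13:63300712-63300784 and Mir24-1 at chr13:63301208-63301275, on the plus strand within 792 nt. This cluster lies in the protein-coding gene 2010111I01Rik on the same strand, with Mir23b in an intron and Mir27b and Mir24-1 overlapping an exon of at least 1 transcript. Fancc runs across all 3 on the opposite strand, where they are intronic. The gaps between hairpins are 79 and 56 nt on chromosome 8, and 154 and 423 nt on chromosome 13. Each Mir24 hairpin has a further miRNA gene on its opposite strand, Mir3074-2 over 83 nt of Mir24-2 and Mir3074-1 over all 68 nt of Mir24-1.

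**Figure D1:**
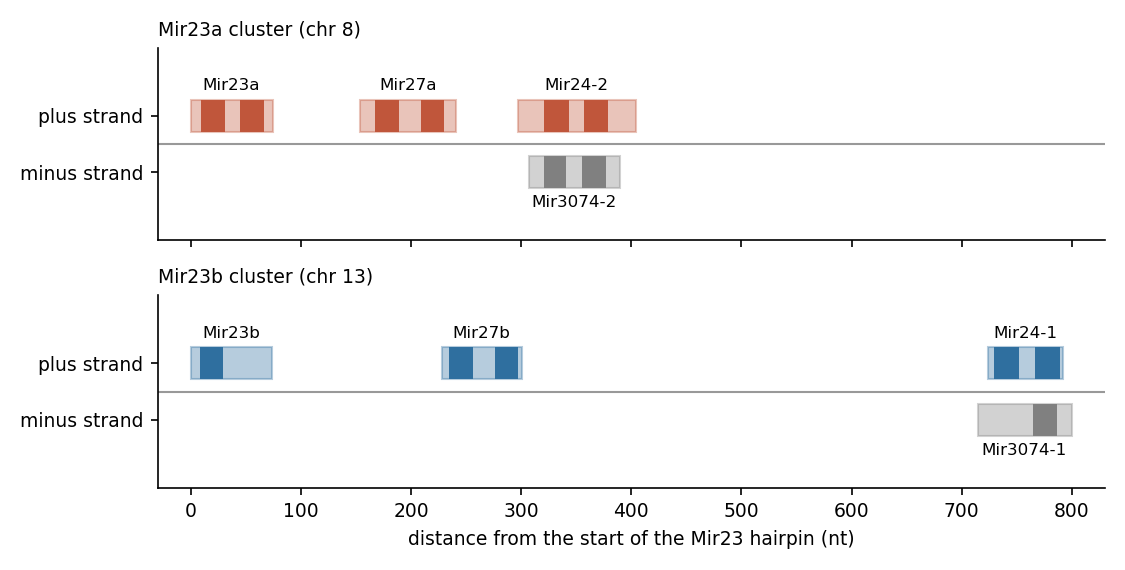
Map of both clusters, with distance in nt from the start of the Mir23 hairpin on the x axis and the strands as rows; pale boxes are hairpins, dark blocks the mature RNAs listed in the RefSeq table, and grey boxes the Mir3074 genes on the opposite strand. The Mir23b cluster spans 792 nt against 404 nt for the Mir23a cluster, with its wider gaps before Mir27b and Mir24-1. No block is drawn for miR-23b-3p, which the RefSeq table did not list.

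Levels are given in CPM, the sense counts of a gene per 1000000 sense counts over all genes of its library. Reads placed at several loci, 43.9% of reads in replicate 1 and 47.9% in replicate 2, enter neither. Ranks and shares are therefore among counted reads only. Replicate 1 held 4429633 sense counts in genes and replicate 2 held 6985784, so 3 counts, the limit that a count of 0 allows, were worth 0.677 and 0.429 CPM. Of the 2202 genes, 438 reached 2 CPM in both libraries and are called detected, all 6 genes of the clusters among them. As a check of the tissue, 8 of 12 neuronal marker genes were detected, and the list summed to 62567 and 81564 CPM. Mir132 alone had 42570 CPM in replicate 1 and 61586 CPM in replicate 2, so the sum rests mainly on 1 gene. Those not detected were Mir124a-1, Mir124a-2, Mir124a-3 and Mir9-2, all numbered copies. Of 5 muscle genes, Mir206 had 19.9 CPM in replicate 1 and 29.5 in replicate 2, and Mir1a-1, Mir1a-2, Mir133a-1 and Mir133a-2 had no count. These 4 are numbered copies, so their 0 does not show that muscle RNA was absent, since reads placed at several loci are not counted. The libraries were not alike in every list. All 7 epithelial markers were detected, at 12838 CPM in sum in replicate 1 and 2060 CPM in replicate 2, and 6 of them were higher in replicate 1 by the test used below.

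The Mir23 genes were the most abundant of both clusters. Mir23b had 94531 counts in replicate 1 and 164486 in replicate 2, or 21341 and 23546 CPM. Its mean of 22443 ± 1559 CPM (SD, n = 2) ranked 9th of all 2202 genes by counted reads. Mir23a had 55260 and 55275 counts, or 12475 and 7913 CPM, and a mean of 10194 ± 3226 CPM at rank 20. Mir23b was thus above Mir23a in both libraries, with no overlap of their values, while Mir23a was the one that stood lower in replicate 2.

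The Mir27 genes were lower than the Mir23 gene beside them in both libraries. Mir27b had 15379 and 31150 counts, 3472 CPM in replicate 1 and 4459 CPM in replicate 2, and ranked 48th at 3965 ± 698 CPM (SD, n = 2). Mir27a had 907 and 2241 counts, 205 and 321 CPM, and ranked 160th at 263 ± 82.1 CPM. The lower value of Mir27b was still above the higher value of Mir27a by more than 10 times.

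The Mir24 genes had the fewest counts of each cluster. Mir24-2 had 380 counts in replicate 1 and 488 in replicate 2, which is 85.8 CPM (exact 95% interval 77.4 to 94.9) and 69.9 CPM (63.8 to 76.3). Mir24-1 had 116 and 565 counts, 26.2 CPM (21.6 to 31.4) and 80.9 CPM (74.3 to 87.8). Intervals and the limit for a count of 0 cover counting error only, since these tables have no molecular identifiers. The values of Mir24-1 lie on both sides of those of Mir24-2, so their order cannot be given. All other neighbours in the order Mir23b, Mir23a, Mir27b, Mir27a and then the Mir24 genes were apart in both libraries.

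**Figure D2:**
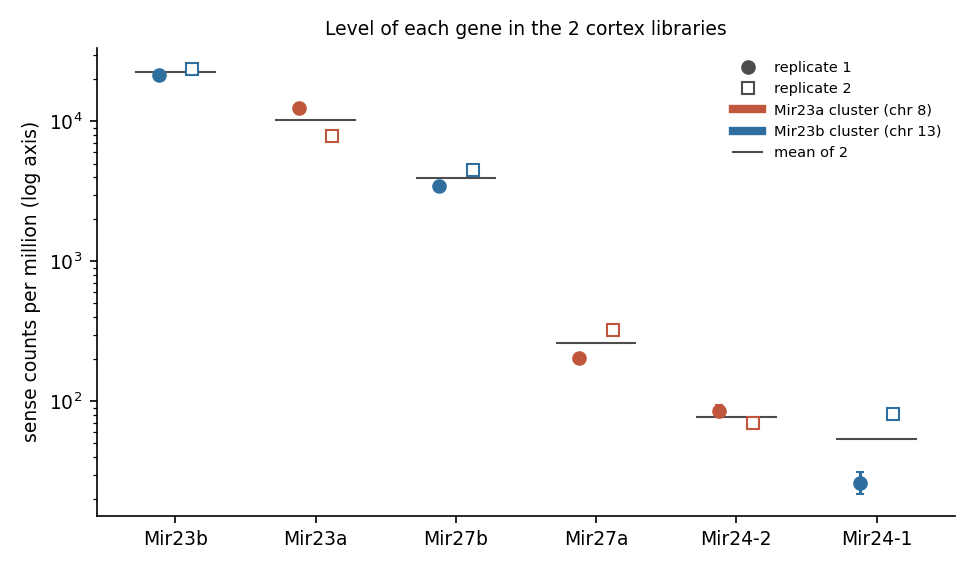
CPM of each gene on a log axis, with filled circles for replicate 1, open squares for replicate 2, exact 95% counting intervals and a line at the mean of both. The genes run from 22443 CPM for Mir23b to 53.5 CPM for Mir24-1, and the libraries are farthest apart for Mir24-1.

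Of the 6 genes, the Mir24 genes were the ones with counts on the opposite strand. Mir23a, Mir27a, Mir23b and Mir27b had 0 counts on the opposite strand in both libraries. Opposite to Mir24-2 there was 1 count in replicate 1 and there were 3 in replicate 2, which are the sense counts of Mir3074-2. Opposite to Mir24-1 there were 119 counts in replicate 1 and 20 in replicate 2, which are the sense counts of Mir3074-1. Mir24-1 and Mir3074-1 were thus equal within counting error in replicate 1, with a ratio of 0.975 (exact 95% interval 0.748 to 1.27). In replicate 2 the ratio was 28.3 (18.1 to 46.6). Mature miR-3074-5p overlaps miR-24-3p by 20 nt on the other strand and is itself encoded at both loci. The column that ignores strand gives 0 counts to Mir24-1, Mir24-2 and both Mir3074 genes in each library. That column set 217526 reads of replicate 1 and 393132 of replicate 2 apart as ambiguous, outside any gene's count. Beside those reads the sense counts of these overlapping genes were few. The highest were 380 for Mir24-2 in replicate 1 and 565 for Mir24-1 in replicate 2. Which of the ambiguous reads came from these genes was not traced.

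Summed over its genes, the Mir23b cluster was the larger in both libraries. It held 2.48% of the counts in replicate 1 and 2.81% in replicate 2, a mean of 2.65% ± 0.230 (SD, n = 2). The Mir23a cluster held 1.28% and 0.830%, a mean of 1.05% ± 0.316. The ratio of the Mir23b cluster to the Mir23a cluster was 1.95 in replicate 1 (exact 95% interval 1.93 to 1.97) and 3.38 in replicate 2 (3.35 to 3.41). On the log2 scale this is 1.36 ± 0.56 (SD, n = 2). The size of the ratio differed by 1.74 times between libraries, well beyond counting error. A pair of libraries cannot reach a two-sided sign-flip p below 0.5, so no test over libraries was made. Both clusters together held 3.76% in replicate 1 and 3.64% in replicate 2, and this sum had a smaller SD (0.0859) than either cluster.

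The preference for the chromosome 13 copy was not the same in the 3 paralog pairs. Mir23b was 1.71 times Mir23a in replicate 1 (interval 1.69 to 1.73) and 2.98 times in replicate 2 (2.95 to 3.0). Mir27b was 17.0 times Mir27a in replicate 1 (15.9 to 18.2) and 13.9 times in replicate 2 (13.3 to 14.5). The log2 ratios were 1.17 ± 0.56 for the Mir23 pair and 3.94 ± 0.20 for the Mir27 pair, and their values did not overlap. Mir24-1 was 0.305 times Mir24-2 in replicate 1 (0.246 to 0.377) and 1.16 times in replicate 2 (1.02 to 1.31), so the Mir24 pair changed direction between libraries. The share of the Mir23b copy was 63.1% and 74.8% of the Mir23 pair, and that of Mir27b was 94.4% and 93.3% of the Mir27 pair.

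**Figure D3:**
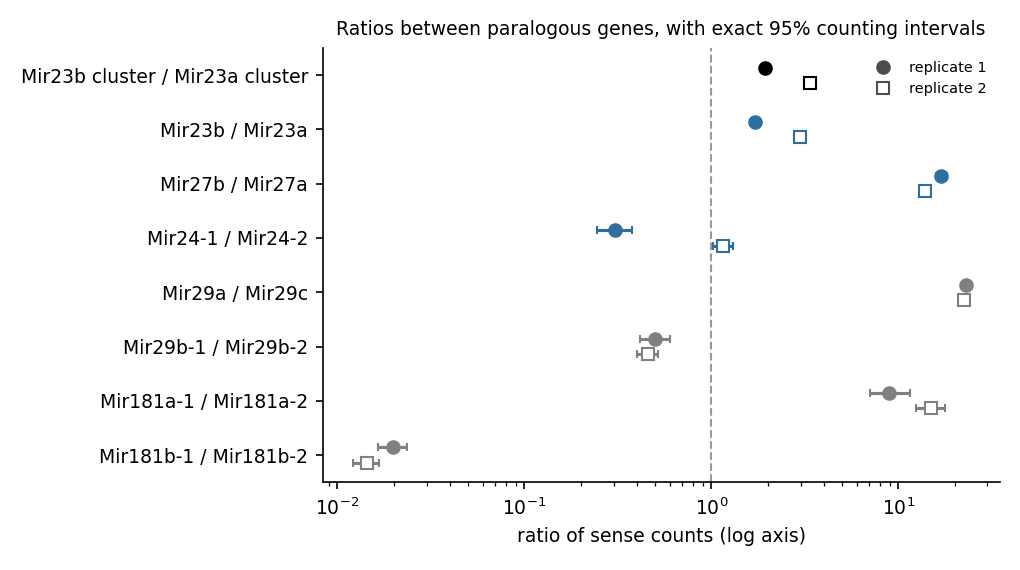
Ratios of sense counts on a log axis, with filled circles for replicate 1, open squares for replicate 2, exact 95% counting intervals and a dashed line at equal counts. The Mir23 and Mir27 pairs lie to the right of the line in both libraries, at 1.71 and 2.98 and at 17.0 and 13.9, while the Mir24 pair lies on either side of it.

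The clusters also differed in composition. Mir23a made up 97.7% of the Mir23a cluster in replicate 1 (exact 95% interval 97.6 to 97.8) and 95.3% in replicate 2 (95.1 to 95.5). Mir23b made up 85.9% of its cluster in replicate 1 (85.7 to 86.1) and 83.8% in replicate 2 (83.7 to 84.0). The Mir27 gene took a larger part on chromosome 13. Mir27b held 13.98% and 15.88% of the Mir23b cluster, while Mir27a held 1.60% and 3.86% of the Mir23a cluster. Mir24-2 held 0.672% and 0.841% of its cluster, and Mir24-1 held 0.105% and 0.288% of its own. All are shares of counted reads, and reads of miR-24-3p that match both loci are missing from them. The Mir24 shares are therefore not those of the mature miRNA. With the Mir24 genes left out, the mean share of Mir23a was 97.2% and that of Mir23b 85.0%. For each of the 3 positions the shares of the chromosome 8 and chromosome 13 genes did not overlap, and with 2 values on each side no test was made.

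Mir23a was 60.9 times Mir27a in replicate 1 and 24.7 times in replicate 2, whereas Mir23b was 6.15 and 5.28 times Mir27b. These folds were set beside those of all neighbouring detected miRNA genes on 1 strand with gaps of at most 1000 nt. There were 65 such pairs, with a median fold of 7.02 between the mean levels of neighbours, and 43.1% of pairs differed by over 10 times. By mean levels, Mir23b and Mir27b differed by 5.66 times, a smaller fold than the median pair. Mir23a and Mir27a differed by 38.8 times, and 84.6% of pairs had a smaller fold. Mir27b and Mir24-1 differed by 74.1 times, above 89.2% of pairs, and Mir27a and Mir24-2 by 3.38 times, above 27.7%. Unequal counts among neighbours were thus common in these libraries. Some of the 65 pairs hold a gene whose mature sequence also lies in another hairpin, as Mir24-1 and Mir24-2 do. The pair with the widest fold, Mir29a and Mir29b-1 at 318, is of this kind. Reads placed at several loci are not counted, so folds of such pairs are not those of mature miRNAs. The part of uncounted reads in these folds was not tested.

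**Figure D4:**
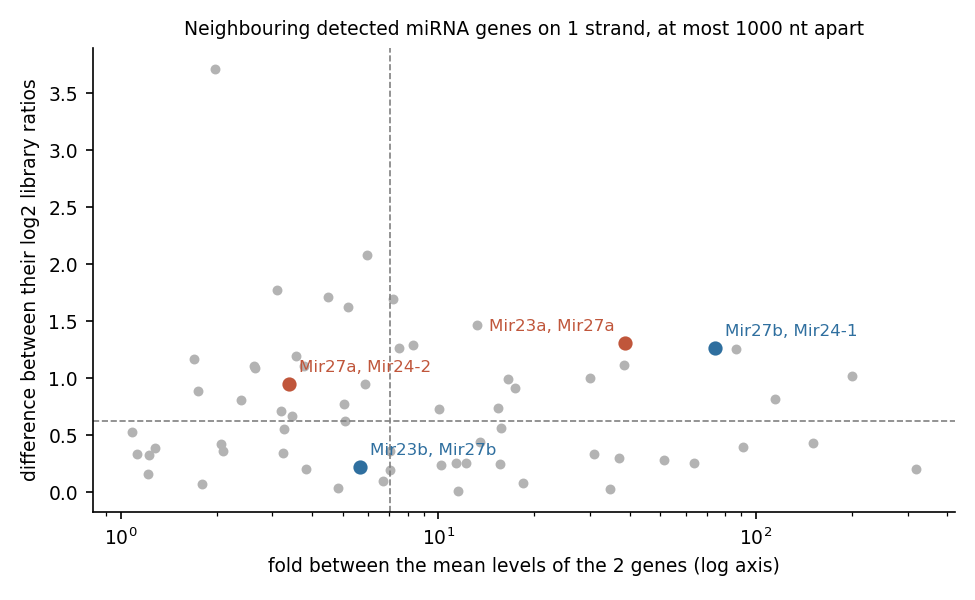
Pairs of neighbouring detected miRNA genes, by the fold between their mean levels (x, log axis) and the difference between their log2 library ratios (y), with dashed lines at the medians of 7.02 and 0.62. Mir23b with Mir27b lies below both medians, and Mir23a with Mir27a and Mir27b with Mir24-1 lie above both.

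The libraries were then compared gene by gene by an exact binomial test of the 2 counts, given library sizes scaled by the trimmed mean of M values (TMM), with Benjamini-Hochberg adjustment over the 438 detected genes. Calls needed both an adjusted p below 0.05 and at least 2 times as many scaled counts in 1 library as in the other. The test sets 2 libraries against counting error and does not compare conditions. It called 79 genes (18.0%), and 1 of the 6 cluster genes, Mir24-1, was called. Toward replicate 2 it called 41 genes (9.36%), Mir24-1 among them, and toward replicate 1 it called 38 (8.68%), none of them from the clusters. By adjusted p alone 280 genes (63.9%) passed, and 5 of the 6 cluster genes did, so passing counting error was usual in these libraries. Toward replicate 2 this held for 140 genes (32.0%) and for 4 of the 6.

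Mir24-1 was higher in replicate 2 with a log2 ratio of 1.75 (exact 95% interval 1.46 to 2.05, binomial adjusted p = 3.59e-40), a larger absolute ratio than 94.98% of detected genes. Mir27a had a log2 ratio of 0.77 (0.66 to 0.89), Mir27b 0.49 (0.46 to 0.51) and Mir23b 0.27 (0.26 to 0.28), all past counting error toward replicate 2 and short of the ratio limit. Mir23a went toward replicate 1 at -0.53 (-0.55 to -0.51), also past counting error and short of the limit. Mir24-2 at -0.17 (-0.37 to 0.03) did not pass (binomial adjusted p = 0.122). The median over the 6 genes was 0.38, beside -0.03 over all 438 detected genes, and the median absolute ratio of all detected genes was 0.50. With library totals in place of TMM the median of all detected genes moved to -0.16, and the direction held for each of the 6 genes.

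In neither cluster did all genes shift alike between the libraries, and only the Mir23a cluster had log2 ratios of both signs. The log2 ratios of Mir23a and Mir27a differed by 1.30, and 87.7% of the 65 neighbouring pairs differed by less. Mir23b and Mir27b differed by 0.22, and 15.4% of pairs differed by less, against a median difference of 0.62. Mir27b and Mir24-1 differed by 1.26, above 83.1% of pairs, and Mir27a and Mir24-2 by 0.94, above 64.6%. On the opposite strand Mir3074-1 had a log2 ratio of -3.08 (-3.87 to -2.41) and was called toward replicate 1 (binomial adjusted p = 4.64e-27), opposite in direction to Mir24-1.

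A second test allowed for spread beyond counting error, with a negative binomial model and the common dispersion that edgeR estimated from both libraries taken as replicates. The biological coefficient of variation, the square root of that dispersion, was 0.415. By its adjusted p 5 of 438 genes (1.14%) passed, and 0 of the 6 cluster genes did. At an unadjusted p under 0.05 the edgeR exact test passed 21 genes and again none of the 6, with Mir24-1 nearest at an unadjusted exact p of 0.0530. The adjusted p of Mir3074-1 was 0.0936 by the edgeR exact test. The dispersion comes from the same libraries that it judges.

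**Figure D5:**
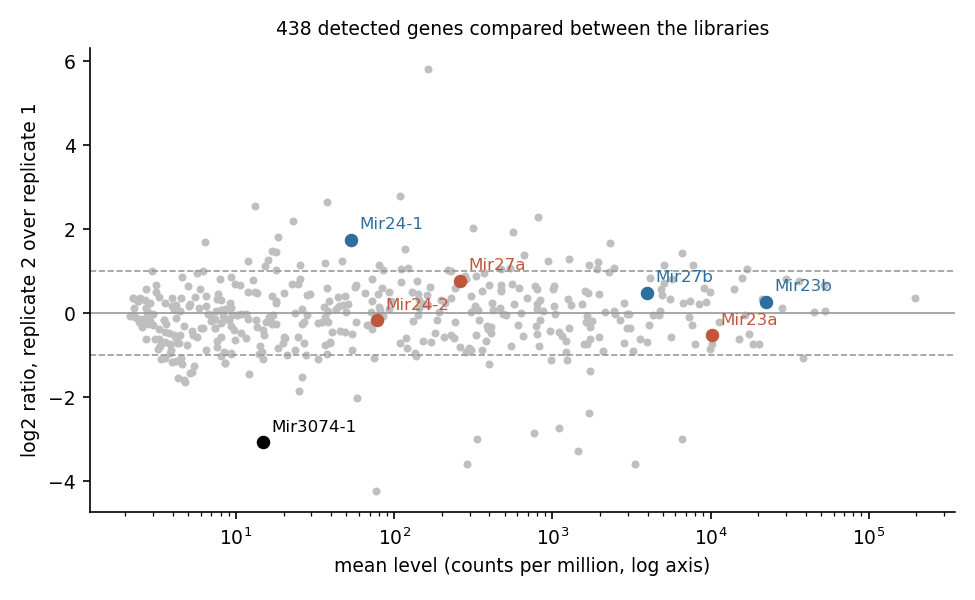
Log2 ratio of replicate 2 over replicate 1 against mean level (log axis) for the 438 detected genes in grey, with the Mir23a cluster in red, the Mir23b cluster in blue, Mir3074-1 in black and dashed lines at a ratio of 2. Mir24-1 at 1.75 lies beyond the line, and the other 5 cluster genes lie between the lines.

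Marker lists of other cells were compared between the libraries in the same way. In the epithelial list 6 genes were called toward replicate 1. In the neuronal list 2 were called toward replicate 2, Mir9-1 (log2 ratio 2.65) and Mir9-3 (2.56). Both are numbered copies, and reads placed at several loci are not counted, so these are not ratios of mature miR-9. In the endothelial, glial and oligodendrocyte lists and that of microglia and leukocytes 0 genes were called. The epithelial list had a median log2 ratio of -2.39 over 7 of 7 detected genes. Its gene that was not called, Mir203, went toward replicate 2 at 0.66, past counting error and short of the ratio limit. Endothelial and mural markers had 3 of 4 genes detected, a sum of 4286 CPM in replicate 1 and 5428 CPM in replicate 2, and Mir126b at 0 counts. The glial list, which here holds the Mir29 genes, had 4 of 4 detected and summed to 12437 and 17099 CPM in replicates 1 and 2. The oligodendrocyte list, 3 of 3 detected, had 7110 and 7851 CPM. The part of these cells in the ratios of the cluster genes was not tested. In bulk tissue fewer cells of a type and less RNA per cell cannot be told apart. Base composition differed between the clusters too, with 56.0, 59.8 and 61.7% GC in the Mir23a, Mir27a and Mir24-2 precursors and 48.6, 47.9 and 51.5% in Mir23b, Mir27b and Mir24-1. Over detected genes the trend of the log2 ratio fell from 0.41 at 40.9% GC to -0.43 at 64.8% GC. With that trend removed the log2 ratio of Mir27a was 1.03 and was called, and that of Mir24-2 turned to 0.15.

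Other families with paralogous clusters had unequal counts between copies as well. In the Mir29 family, repressors of collagen and other matrix genes, Mir29a had 11801 and 16226 CPM and Mir29c had 515 and 720 CPM. Their ratio was 22.9 in replicate 1 and 22.5 in replicate 2, where the Mir23 pair had 1.71 and 2.98. Mir29b-1 and Mir29b-2, which share a mature sequence as the Mir24 genes do, had 40.2 and 48.0 CPM and 80.4 and 104.9 CPM. Their ratio was 0.5 (exact 95% interval 0.415 to 0.6002) and 0.457 (0.400 to 0.521). In the Mir181 family, whose numbered copies share mature sequences too, Mir181a-1 was 8.97 times Mir181a-2 in replicate 1 (7.06 to 11.5) and 14.9 times in replicate 2 (12.5 to 17.9). Mir181b-1 was 0.0198 times Mir181b-2 in replicate 1 (0.0166 to 0.0236) and 0.0143 times in replicate 2 (0.0122 to 0.0168). Reads placed at several loci are not counted, so ratios of copies that share a mature sequence are not ratios of their levels. The intervals of the libraries did not overlap for the Mir24 and Mir181a pairs, and they overlapped for the Mir29b and Mir181b pairs. Whether the Mir24 pair varied more than such pairs was not tested.

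The Mir24 counts were set beside those of other genes whose mature sequence lies in a second hairpin. Of 1018 counted genes with a mature sequence in the RefSeq table, 95 had 1 that also occurs in the hairpin of another gene, Mir24-1 and Mir24-2 among them. Of these 95, 46 were detected (48.4%) with a median of 81.4 CPM. Of the other 923, among them Mir23a, Mir23b, Mir27a and Mir27b, 349 were detected (37.8%) with a median of 72.7 CPM. Mir24-2 at 77.8 ± 11.3 CPM (SD, n = 2) and Mir24-1 at 53.5 ± 38.7 CPM were near both medians. At 1000 CPM or more there were 8 of the 46 detected genes with a shared sequence and 79 of the other 349. The 95 genes held 3.40% and 3.60% of the counts in the 2 libraries, and the other 923 held 89.5% and 89.98%. The part of shared sequences in these levels was not tested.

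For each gene the 2 genes nearest in log2(CPM + 1) over the 2 libraries were named by a rule. For Mir23b they were Mirlet7e (19483 and 22673 CPM, Euclidean distance 0.14) and Mirlet7d (0.48). For Mir23a they were Mir433 (13115 and 7231 CPM, distance 0.15), of the imprinted Dlk1-Dio3 array, and Mir328 (0.25). Mir27b was nearest to Mir30a (0.25) and Mir382 (0.40), and Mir27a to Mir488 (0.14) and Mir872 (0.16). Mir24-2 was nearest to Mir491 (0.19) and Mir25 (0.20). The nearest gene of Mir24-1 was farther off than that of the other 5, with Mirlet7f-1 at 0.37 and Mir16-2 at 0.72, both numbered copies of miRNAs encoded at more than 1 locus. With 2 libraries this likeness is one of level.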

How the data were processed

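The authors deposited 1 table of raw read counts per library, with a column for either strand, for the sense strand and for the opposite strand. The assembly was mm10 and the annotation M21, per the readme text that came with the tables. RNA was limited by size, and each library cites its own trimming document, per the labels' protocols, so trimming and replicate cannot be told apart. Aligner and counter: not given in the sources used here. The 4 lines that name no gene made up 64.6% and 61.8% of the reads and entered neither library sizes nor tests. The column taken as sense holds the larger total of the stranded columns.

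Counts were scaled to CPM over all gene lines. All 2202 identifiers matched GENCODE M21. Shares and ratios of single libraries have exact (Clopper-Pearson) 95% intervals. Log2 ratios set replicate 2 over replicate 1, after adding 0.5 to each count. The binomial test (scipy 1.17.1) used TMM sizes from edgeR 4.0.16, and the spread-aware test was edgeR's negative binomial exact test. The binomial test was first run on simulated counts that held counting error only. That does not show how it behaves with the wider spread of these libraries. Alternatives were library totals, DESeq2 1.42.0 size factors, no filter, a ratio limit of 1.5, the either-strand column, thinning and removal of a GC trend. Genes named are the 6 members, the Mir3074 genes opposite to them, and the 2 genes nearest in level to each. The Mir29 and Mir181 families and some genes of the marker lists are named too. The members and lists were chosen with earlier results of these data known.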

Additional observations from a re-analysis of the deposited data

How the results depend on the processing

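Of 125 recomputed values, 106 kept their direction, side of the threshold or range. Some of them could not do otherwise. The Mir23 and Mir27 genes had the same counts in the either-strand column, so the ratios of these pairs stayed. A ratio limit of 1.5 and the negative binomial test left each log2 ratio as it was, so only calls could move. Leaving out either library kept all 32 values within 1 SD, which 2 libraries make unavoidable: Mir23a ranged from 7913 to 12475 CPM, and the log2 ratio of the Mir24 pair from -1.71 to 0.21. Per 1000000 reads of the whole table, Mir23a was at 3721, Mir27a at 97.6, Mir24-2 at 28.5, Mir24-1 at 20.1, Mir23b at 8279 and Mir27b at 1467. Without the most abundant gene in the total, Mir24-2 was at 96.8, Mir23b at 28008 and Mir27b at 4956 CPM. In the either-strand column Mir24-2 and Mir24-1 had 0 CPM and a share of 0%, so their ratios have no value there. The 79 genes called became 171 at a ratio limit of 1.5, with Mir27a (0.77) added, and 5 by the negative binomial test, without Mir24-1 (1.75) and Mir3074-1. With library totals 84 genes were called and with the GC trend removed 57. With that trend removed Mir27a (1.03) was called and Mir24-2 changed sign (0.15). The causes were not tested. No paired analysis was possible because the series has 1 group. Depth gives Mir24-1 in replicate 1, on 116 counts, an interval of 21.6 to 31.4 CPM.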
